A study of Mus musculus with 6 samples.

Results

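The Polycomb complex genes analysed here were 10 genes chosen by symbol as subunits of the complexes, out of 42450 genes listed in a total RNA profile of mouse embryonic stem cells (ESCs). They encode subunits of both Polycomb repressive complexes: *Ezh1*, *Ezh2*, *Eed*, *Suz12*, *Jarid2* and *Mtf2* for PRC2, and *Rnf2*, *Ring1*, *Cbx7* and *Pcgf6* for PRC1. The profile compared 3 WT libraries of the male ESC line E14tg2a.4 with 3 libraries of Srrm2+/- cells, an E14tg2a.4 derivative in which a gene-trap cassette truncates 1 allele of *Srrm2* in exon 1, with the other allele intact. *Srrm2* encodes a large spliceosome-associated protein of nuclear speckles. Both lines grew on gelatin with LIF and were moved to serum-free ESGRO medium with LIF before RNA was taken. The labels give 2 values for the time in that medium without saying which applies here. The study's methods give a single growth time for the total RNA cultures, which differs from both. Each genotype was represented by 1 cell line. According to the study's methods, replicates were thawed from separate frozen batches, and WT had been frozen at higher passages than Srrm2+/-. Genotype, line history and passage therefore cannot be told apart, and the p-values measure the spread between cultures of these lines.

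PRC2 places methyl groups on lysine 27 of histone H3 (H3K27), and PRC1 places ubiquitin on histone H2A and compacts chromatin. Both hold developmental regulators silent in ESCs, which nevertheless can self-renew without PRC2. PRC2 is built on a core of *Ezh1* or *Ezh2* (the methyltransferase), *Eed* (which reads the mark already made) and *Suz12* (the scaffold), and the core joins either a Polycomb-like protein such as MTF2, giving PRC2.1, or JARID2 and AEBP2, giving PRC2.2. PRC1 is built on RNF2 (also called RING1B) or RING1, the ubiquitin ligases. A Pcgf protein decides its form. Canonical PRC1 also holds a Polycomb-type CBX protein such as CBX7, which binds methylated H3K27, whereas PCGF6 belongs to a variant PRC1 that lacks CBX proteins of this type.

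WT libraries held 54151433 to 58499765 estimated counts and Srrm2+/- libraries 61022915 to 69933421. Levels below are CPM (estimated counts normalised to the scaled library size), and per kilobase of annotated exons where genes are compared with each other. *Srrm2*, the trapped gene, fell from 95.7 ± 3.94 CPM among WT libraries to 59.3 ± 3.02 CPM among Srrm2+/- libraries (SD, n = 3), a log2 change of -0.69. The cells carried the RNAs that define ESCs in both groups: all 10 pluripotency markers on the list used passed the count filter, with *Pou5f1*, the gene of OCT4, at 847 CPM in WT cells and 824 CPM in Srrm2+/- cells. The summed level of the 10 was 5252 to 5438 CPM in WT and 4566 to 4693 CPM in Srrm2+/-. At an edgeR adjusted p under 0.05, 6 of the 10 were lower in Srrm2+/- and 1 was higher. Their log2 fold changes ran from -0.82 to 0.52. Of all genes tested, 13.6% were higher and 11.7% lower.

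Each of the 10 genes passed the filter on low counts. In Srrm2+/- cells *Jarid2* rose, *Suz12*, *Mtf2*, *Ezh1* and *Pcgf6* fell, and *Ezh2*, *Rnf2*, *Ring1*, *Cbx7* and *Eed* did not pass the test. Genes were called at an edgeR adjusted p under 0.05. Of all 18905 genes tested, 25.3% were called, with 13.6% higher and 11.7% lower, and among genes whose level lay within 0.5 log2 units of a given member the share called was 22.1% to 35.6%. Against that background, 5 of 10 members were called (1 higher and 4 lower), a share of so few genes that it is read gene by gene. The called changes were small, from 1.24-fold higher to 81.9% of the WT level, and the median log2 fold change of the 10 was -0.10, beside -0.0025 for all genes tested. Tested against a 1.2-fold change, edgeR glmTreat called 0 of 10 at the same threshold, beside 1276 higher and 741 lower of all 18905 genes. The test against no change called 5 of 10, and 5 of 10 also had an unadjusted p under 0.05 in it. The 0 of 10 does not bound the changes at 1.2-fold, since the 95% intervals reached 1.33-fold for *Jarid2* and 0.753-fold for *Suz12*. The groups did not overlap for 5 members, the same 5 that were called, where 41.4% of all genes tested had groups that did not overlap.

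**Figure D1:**
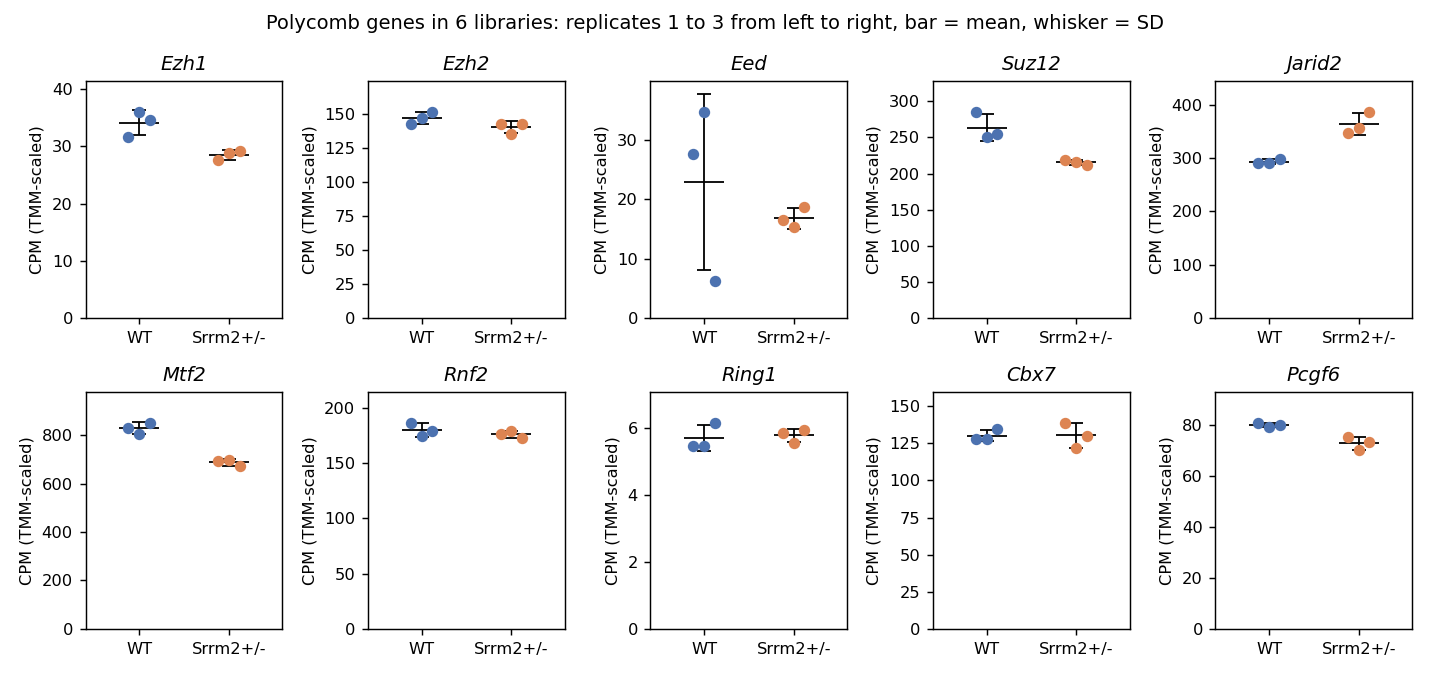
Normalised level (CPM, linear axis from 0, 1 panel a gene) of the 10 Polycomb genes in each of the 3 WT and 3 Srrm2+/- libraries; points are libraries, bars means and whiskers SDs. The points of *Jarid2* are higher and those of *Suz12*, *Mtf2*, *Ezh1* and *Pcgf6* lower in Srrm2+/-, and for *Eed* the WT replicate 3 point lies at 6.27 CPM, below every other library.

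The promoters of the 3 members with the smallest adjusted p, *Mtf2*, *Jarid2* and *Suz12*, are shown because they belong to the clearest changes, 1 rise and 2 falls, in the same cells. Each run is the 250 bases before a RefSeq transcription start (build GRCm38.p6, plus strand, 5′ to 3′), and capitals mark a CCAAT box (CCAAT or its reverse complement ATTGG) or an E2F site (TTTGGCGC, TTTCGCGC, TTTCCCGC or TTTGCCGC, either strand).
Suz12, chr11:79992856-79993105: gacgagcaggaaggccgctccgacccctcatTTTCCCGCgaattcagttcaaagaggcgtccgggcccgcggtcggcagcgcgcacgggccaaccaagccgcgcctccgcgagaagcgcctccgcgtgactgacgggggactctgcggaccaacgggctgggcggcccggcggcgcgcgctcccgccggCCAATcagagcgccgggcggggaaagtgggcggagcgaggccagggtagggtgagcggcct
Mtf2, chr5:108065424-108065673: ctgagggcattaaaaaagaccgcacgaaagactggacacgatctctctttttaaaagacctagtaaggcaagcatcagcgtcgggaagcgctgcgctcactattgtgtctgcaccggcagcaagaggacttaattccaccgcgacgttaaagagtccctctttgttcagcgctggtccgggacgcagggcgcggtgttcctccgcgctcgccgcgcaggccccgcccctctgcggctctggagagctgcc
Jarid2, chr13:44730524-44730773: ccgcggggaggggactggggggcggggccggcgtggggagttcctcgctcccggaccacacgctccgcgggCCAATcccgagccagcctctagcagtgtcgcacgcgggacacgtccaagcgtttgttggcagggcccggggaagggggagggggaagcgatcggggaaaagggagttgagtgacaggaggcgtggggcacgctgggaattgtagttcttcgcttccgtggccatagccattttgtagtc
Each of the 3 windows was rich in CpG dinucleotides. *Suz12* held 37, more than 97.8% of the 32851 promoter windows of the same length, and *Mtf2* and *Jarid2* held 23 each, more than 86.7% of them. RefSeq listed 12 windows for the 10 genes, since *Jarid2* and *Mtf2* have an alternative start each, and their median CpG number was 22.5 against 6 for all windows. Both *Jarid2* windows lie inside the gene as annotated for the counts, which starts at chr13:44729474. The bases before that start were not searched. An E2F site was in 1 of the 12 windows, that of *Suz12*, and in 1.86% of all windows. The CCAAT box was in 5 of 12 windows (*Suz12*, *Jarid2*, *Ezh2*, *Cbx7* and the second *Mtf2* window, not the one printed) and in 33.8% of all. The TATA box (TATAAA) was in the second *Jarid2* window alone and in 12.4% of all windows. The ETS motif (CCGGAAGT, 2.88% of all windows) and the CRE (TGACGTCA, 1.55%) were in none of the 12. Motifs were searched on both strands, and these matches describe letters in the windows only.

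The catalytic subunits came first among the PRC2 genes. *Ezh2* (ENSMUSG00000029687, chr6:47530139-47595341, minus strand), which encodes the main H3K27 methyltransferase of dividing cells, measured 143, 147 and 152 CPM in WT replicates 1 to 3 and 143, 136 and 143 CPM in Srrm2+/- replicates 1 to 3. The groups overlapped. Its mean was 147 ± 4.27 CPM in WT cells and 141 ± 4.31 CPM in Srrm2+/- cells (log2 -0.07, SE 0.04, edgeR adjusted p = 0.278), and the 95% interval of the fold change ran from 0.896 to 1.02. *Ezh1* (ENSMUSG00000006920, chr11:101191115-101226463, minus strand) encodes the other H3K27 methyltransferase, which is weaker as an enzyme and more prominent in resting and differentiated cells. It measured 31.7, 36.0 and 34.6 CPM in WT and 27.6, 28.9 and 29.2 CPM in Srrm2+/-, so that every Srrm2+/- library lay below every WT library. *Ezh1* fell by 0.26 on the log2 scale (SE 0.06, edgeR adjusted p = 0.0112), from 34.1 ± 2.21 to 28.5 ± 0.842 CPM.

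*Suz12* (ENSMUSG00000017548, chr11:79993106-80034123, plus strand), the scaffold on which PRC2.1 and PRC2.2 assemble, measured 285, 250 and 255 CPM in WT and 219, 216 and 212 CPM in Srrm2+/-. The WT libraries were spread more widely than the Srrm2+/- libraries, without overlap between them. The mean went from 264 ± 19.0 to 216 ± 3.53 CPM, 81.9% of the WT level by the fitted fold change (log2 -0.29, SE 0.05, edgeR adjusted p = 0.00422).

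*Eed* (ENSMUSG00000030619, chr7:89954654-89980983, minus strand), whose protein binds trimethylated H3K27 and stimulates the enzyme, gave the least settled value of the 10. It measured 27.6, 34.7 and 6.27 CPM in WT and 16.4, 15.3 and 18.7 CPM in Srrm2+/-. WT replicate 3 was at 336 counts, where WT replicates 1 and 2 had 1534 and 2004 and the Srrm2+/- libraries 1053 to 1153. The WT coefficient of variation, 64.7%, was larger than that of 99.9% of 2185 genes of like level. With all libraries *Eed* differed by -0.45 on the log2 scale (SE 0.46, edgeR adjusted p = 0.537), with a 95% interval from -1.49 to 0.59 that takes in both a fall and a rise. Without WT replicate 3 it was -0.89 (SE 0.11, edgeR adjusted p = 0.000999), the only 1 of 15 other settings with a call. Other settings moved it towards 0: -0.29 without WT replicate 1, -0.014 without WT replicate 2, -0.15 with limma voom and -0.22 with the replicate block. The lowest WT library of *Eed* was at 0.227 times the next lowest, whereas for each other member that ratio was at least 0.915. Transcripts of other genes shared 7.61% of the 31-base words of *Eed*, most of them with *E230029C05Rik*, which had 9 to 53 counts and 40 in WT replicate 3. What lowered the value in that library was not tested.

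Of the proteins that join the core, *Mtf2* encodes the Polycomb-like subunit that binds CpG-rich DNA and guides PRC2.1 to its sites in ESCs. *Mtf2* (ENSMUSG00000029267, chr5:108065674-108109004, plus strand) measured 830, 803 and 852 CPM in WT and 695, 698 and 672 CPM in Srrm2+/-. The 2 groups were far apart relative to their spread. The mean went from 828 ± 24.2 to 688 ± 14.1 CPM (log2 -0.27, SE 0.04, edgeR adjusted p = 0.00133), and *Mtf2* was at 83.1% of its WT level. *Jarid2* (ENSMUSG00000038518, chr13:44729474-44921643, plus strand) encodes a catalytically inactive Jumonji protein of PRC2.2 that binds DNA and the H2A mark made by PRC1. It measured 290, 291 and 298 CPM in WT and 347, 357 and 386 CPM in Srrm2+/-, the only one of the 10 genes in which every Srrm2+/- library lay above every WT library. *Jarid2* rose 1.24-fold, from 293 ± 4.39 to 363 ± 20.5 CPM (log2 0.31, SE 0.05, edgeR adjusted p = 0.00158).

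*Jarid2* and *Mtf2* thus changed in opposite directions, each call standing on its own. Their ratio of estimated counts within a library, chosen after the values were seen and therefore given without a test, does not depend on how libraries are scaled. The ratio of *Jarid2* to *Mtf2* was 0.350, 0.362 and 0.350 in WT and 0.499, 0.512 and 0.575 in Srrm2+/-, 1.49-fold higher. *Aebp2*, the partner of *Jarid2* in PRC2.2, rose as well (60.5 ± 1.79 to 71.5 ± 2.88 CPM, log2 0.24, SE 0.04, edgeR adjusted p = 0.00430), and its ratio to *Mtf2* was 0.0706, 0.0757 and 0.0730 in WT and 0.106, 0.0977 and 0.109 in Srrm2+/-. Neither ratio overlapped between the groups. That follows from the changes of the single genes, since none of the 3 overlapped and *Mtf2* moved the other way, and it adds no separate evidence. These are ratios of RNAs, not of assembled complexes.

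**Figure D2:**
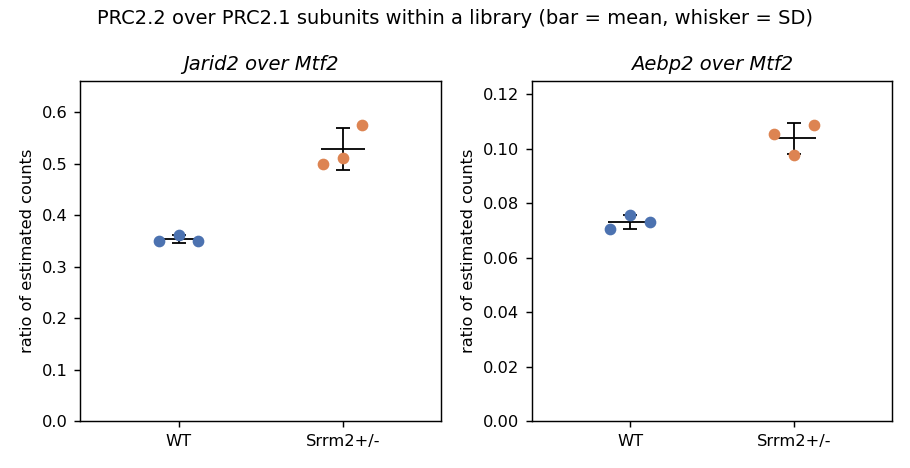
Ratio of estimated counts within each library of the PRC2.2 genes *Jarid2* (left) and *Aebp2* (right) to the PRC2.1 gene *Mtf2*, linear axes from 0; points are libraries, bars means and whiskers SDs, 3 libraries a group. In each panel the 3 Srrm2+/- points lie above the 3 WT points, as follows from the changes of the single genes.

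The ubiquitin ligases of PRC1 gave no call. *Rnf2* (ENSMUSG00000026484, chr1:151458004-151500955, minus strand), the main ligase of ESCs, measured 186, 174 and 179 CPM in WT and 176, 179 and 173 CPM in Srrm2+/-, with overlapping groups (log2 -0.03, SE 0.04, edgeR adjusted p = 0.617). The 95% interval of its fold change ran from 0.919 to 1.04. *Ring1* (ENSMUSG00000024325, chr17:34020792-34024680, minus strand), its paralogue, measured 5.48, 5.47 and 6.16 CPM in WT and 5.84, 5.55 and 5.95 CPM in Srrm2+/- on 304 to 404 counts a library. Its groups also overlapped (log2 0.02, SE 0.10, edgeR adjusted p = 0.910), and its interval was wider, from 0.871 to 1.18. These libraries therefore do not settle whether *Ring1* changed by an amount within that interval.

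*Cbx7* (ENSMUSG00000053411, chr15:79915807-79971119, minus strand), the main chromodomain subunit of canonical PRC1 in ESCs, measured 128, 128 and 135 CPM in WT and 139, 122 and 130 CPM in Srrm2+/-. The fitted log2 difference came to 0.0014 (SE 0.05, edgeR adjusted p = 0.988), the smallest of the 10 in size, with a 95% interval of the fold change from 0.923 to 1.09. *Pcgf6* (ENSMUSG00000025050, chr19:47033617-47050906, minus strand) belongs to the variant PRC1 that binds with MGA, MAX and E2F6 at germline genes. It measured 81.0, 79.2 and 80.1 CPM in WT and 75.3, 70.2 and 73.4 CPM in Srrm2+/-. *Pcgf6* fell to 91.0% of its WT level (log2 -0.14, SE 0.04, edgeR adjusted p = 0.0353), and its call was the least stable of the 5: it was lost under 8 of 15 other settings, including each of 5 of the 6 fits that left out 1 library (adjusted p up to 0.133) and the fit with the replicate number as a block (adjusted p = 0.0519). Only the fit without Srrm2+/- replicate 1 kept it among those 6.

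Per kilobase of exons, *Mtf2* stood far above the rest, at 145 ± 4.25 CPM per kb in WT and 121 ± 2.48 CPM per kb in Srrm2+/-. In WT the order below it was *Suz12* (53.3), *Rnf2* (43.6), *Jarid2* (30.2), *Ezh2* (22.1), *Cbx7* (20.1), *Pcgf6* (15.9), *Eed* (5.97), *Ezh1* (4.58) and *Ring1* (1.76 CPM per kb). The WT ranges of *Eed* and *Ezh1* overlapped and those of the other neighbours did not. In Srrm2+/- the order of the means was the same, but *Suz12* (43.6 CPM per kb) overlapped *Rnf2* (42.6), and *Ezh2* (21.1) overlapped *Cbx7* (20.1). *Jarid2* stood at 37.4 CPM per kb in Srrm2+/-. The order depended on the length used. With the longest annotated transcript in place of all exons, an alternative chosen after seeing the data, *Mtf2* stayed first and *Eed*, *Ezh1* and *Ring1* last in both groups, but *Ezh2* (52.9 CPM per kb in WT) stood above *Jarid2* (35.1) and *Pcgf6* (28.3) above *Cbx7* (21.5). The order of the means then also differed between the groups: *Suz12* (60.3), *Rnf2* (56.2) and *Ezh2* in WT, the neighbours overlapping, and *Rnf2* (54.9), *Ezh2* (50.5) and *Suz12* (49.3) in Srrm2+/-, the last pair overlapping.

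Several members have paralogues that take their place in a complex, and the share of each within its family was computed per library from levels per kilobase, as a description without a test. *Ezh1* made up 17.2% ± 0.749 of the *Ezh1* and *Ezh2* sum in WT and 15.4% ± 0.651 in Srrm2+/-, without overlap. *Ring1* made up 3.88% ± 0.296 of its pair with *Rnf2* in WT and 4.02% ± 0.199 in Srrm2+/-, with overlap. *Mtf2* held nearly all of the Polycomb-like family, 98.6% in WT and 97.8% in Srrm2+/-, while *Phf19* went from 1.11% to 2.00%, and neither overlapped. *Phf1*, the remaining member of this family, overlapped between the groups at 0.304% and 0.195%. *Cbx7* held 81.0% of the Cbx family in WT and 80.5% in Srrm2+/-, with overlap, beside a *Cbx6* share that went from 10.3% to 11.9% and a *Cbx2* share that went from 7.84% to 6.86%, each without overlap. *Pcgf6* was the largest of the Pcgf family at 46.4% in WT and 44.5% in Srrm2+/-, with overlapping groups, and the *Pcgf3* share went from 14.7% to 17.1% without overlap.

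**Figure D3:**
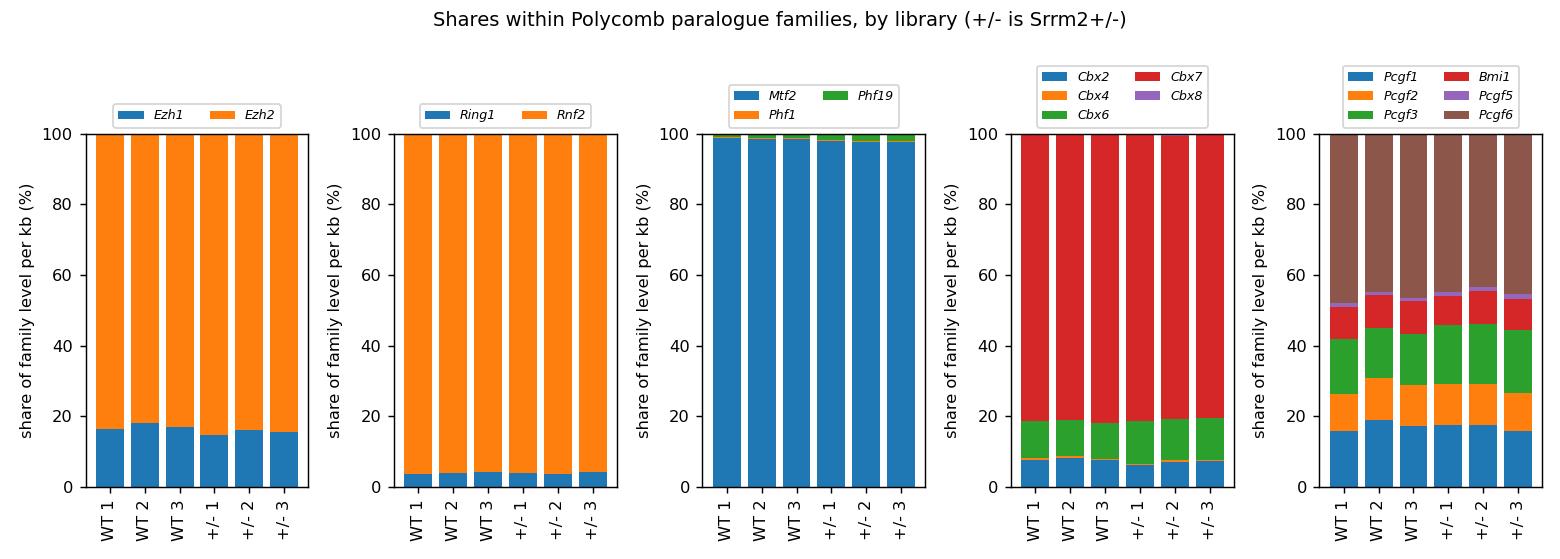
Share (%) of each paralogue in the summed level per kilobase of its family, in each of the 6 libraries (1 stacked bar a library, 1 panel a family). *Ezh2*, *Rnf2*, *Mtf2* and *Cbx7* hold most of their families in all 6 libraries, *Pcgf6* holds 43.3% to 47.8%, and the *Ezh1* part is smaller in each Srrm2+/- bar than in each WT bar.

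The rest of the pathway comprised 57 genes, of which 56 were tested. Of these, 11 rose and 5 fell (28.6%, beside 25.3% of all genes), with a median log2 fold change of -0.05, and none changed by 1 log2 unit or more. The number that fell moved with the libraries used, and leaving out 1 library gave 2 to 5. It was 5 without WT replicate 2, and 3 without WT replicate 1 or Srrm2+/- replicate 1. Without WT replicate 3, Srrm2+/- replicate 2 or Srrm2+/- replicate 3 it was 2. Calls among all genes shrank too: 2208 were lower with all libraries, and 1559 (without Srrm2+/- replicate 3) to 1865 (without WT replicate 1) in these fits. The number that rose was 7 without Srrm2+/- replicate 1 and 8 to 11 without any other library. Among 9 other PRC2 genes, 3 rose and 1 fell. Beside this count and those of the complexes below stand 13.6% higher and 11.7% lower of all genes tested. *Phf19*, a Polycomb-like paralogue of *Mtf2*, rose from 8.25 ± 0.799 to 12.4 ± 0.919 CPM (log2 0.59, SE 0.09, edgeR adjusted p = 0.00197). *Rbbp7*, a histone-binding core subunit, rose from 242 ± 2.07 to 286 ± 5.19 CPM (log2 0.24, SE 0.04, edgeR adjusted p = 0.00132). The gene that fell was *Phf1* (log2 -0.91, edgeR adjusted p = 0.0485), at 1.57 ± 0.492 and 0.835 ± 0.219 CPM with overlapping groups. It lies outside the naming rule and is named after its value was seen, 32.5% of its 31-base words occur in *Cuta*, and its call was lost under 6 of 15 other settings.

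Among 11 other canonical PRC1 genes, 3 rose and 1 fell. *Phc1* and *Phc2*, which encode Polyhomeotic proteins that polymerise and cluster PRC1, rose by 0.27 (SE 0.06, edgeR adjusted p = 0.00948) and 0.44 (SE 0.09, edgeR adjusted p = 0.00586) on the log2 scale, to 212 ± 15.7 and 11.5 ± 1.17 CPM. Their paralogue *Phc3* fell by 0.24 (SE 0.05, edgeR adjusted p = 0.0127), from 30.2 ± 0.588 to 25.6 ± 1.47 CPM. *Cbx6* rose from 27.1 ± 0.636 to 31.5 ± 2.40 CPM (log2 0.22, SE 0.06, edgeR adjusted p = 0.0334), a call lost under 7 of 15 other settings, the replicate block among them (adjusted p = 0.0564).

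Of 18 other variant PRC1 genes tested, 4 rose and 2 fell. RYBP and YAF2 are alternative subunits of variant PRC1 that occupy the same site on the ligase, and their genes moved in opposite directions. *Yaf2* rose from 4.47 ± 0.559 to 6.85 ± 0.630 CPM (log2 0.62, SE 0.12, edgeR adjusted p = 0.00628), and *Rybp*, at 129 ± 4.90 and 115 ± 3.24 CPM, fell by 0.16 (SE 0.04, edgeR adjusted p = 0.0232), a call lost in 4 of the 6 fits without 1 library and against a 1.2-fold change. *Kdm2b*, which brings the PCGF1 form of PRC1 to unmethylated CpG islands, rose from 22.4 ± 1.71 to 30.1 ± 2.58 CPM (log2 0.43, SE 0.08, edgeR adjusted p = 0.00400). *Bcor*, a partner in the same PCGF1 form, rose by 0.25 (SE 0.07, edgeR adjusted p = 0.0289), but not with the replicate block (adjusted p = 0.0684), and this call was lost under 6 of 15 other settings. *Wdr5*, shared by the PCGF6 form and by Trithorax-type complexes, fell from 246 ± 12.7 to 198 ± 9.03 CPM (log2 -0.31, SE 0.05, edgeR adjusted p = 0.00235).

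Of 11 genes of the deubiquitinase complex that removes the PRC1 mark, 1 rose and 1 fell. *Foxk2* (log2 0.19, edgeR adjusted p = 0.0426) and *Ogt* (log2 -0.11, edgeR adjusted p = 0.0493) lay near the threshold, and lost their calls under 7 and 11 of 15 other settings, with *Ogt* at an adjusted p of 0.0919 under the replicate block. Of the 7 genes encoding H3K27 demethylases and Trithorax-type methyltransferases, edgeR called 0, with 2 of 7 at an unadjusted p under 0.05, adjusted p-values from 0.0528 to 0.829 and a median log2 fold change of -0.03.

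**Figure D4:**
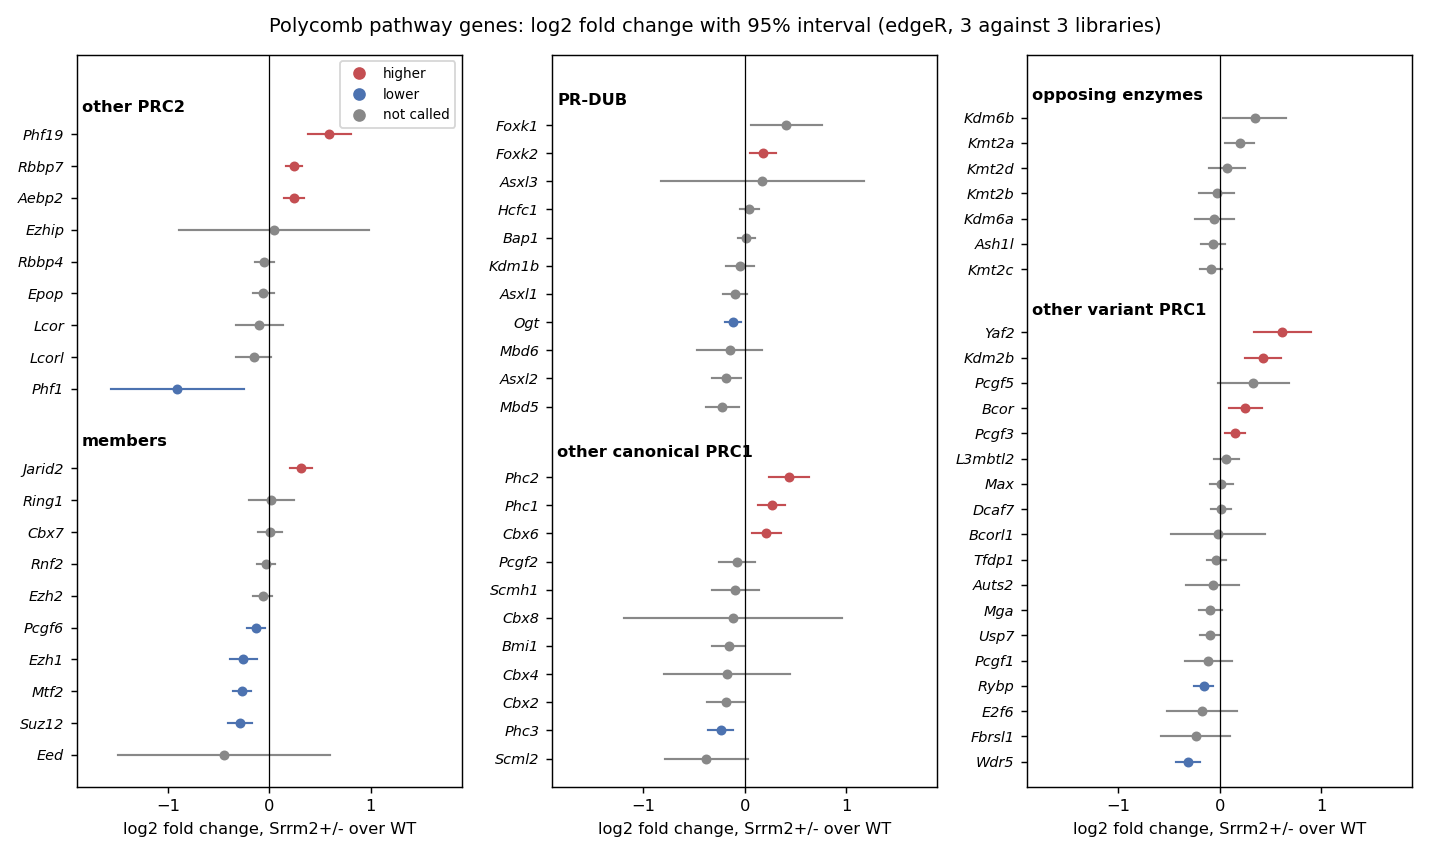
Log2 fold change (Srrm2+/- over WT, horizontal axis) with its 95% interval from edgeR for the 10 members and the 56 other pathway genes tested, grouped by complex; red is called higher, blue called lower and grey not called. The points farther than 0.5 from 0 are those of *Phf19*, *Yaf2* and *Phf1*, the interval of *Eed* spans -1.49 to 0.59, and *Jarid2* is the only member in red.

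Genes that Polycomb is known to hold silent in ESCs were counted separately. The list held 108 genes, 39 Hox genes and 69 other developmental regulators and cell cycle inhibitors, and 65 of them lay below the filter on low counts, 3 of these at 0 counts in every library. Among the 13 Hox genes tested, edgeR called 0, with 1 at an unadjusted p under 0.05. The summed level of all 39 Hox genes was 7.32 to 8.48 CPM in WT and 6.22 to 7.58 CPM in Srrm2+/-. Among the 30 other genes tested, 10 were called higher and 1 lower. Of the 43 genes tested over both lists, 25.6% were called (10 higher and 1 lower). Among all genes tested 25.3% were called, 13.6% higher and 11.7% lower. A gene silent in WT could pass the filter through Srrm2+/- alone, as 9 of the 43 tested genes did. The count is therefore also given for the 23 genes that passed in both groups, of which 7 were higher and 1 lower. Of all genes tested, 16656 passed in both groups, of which 2349 were higher and 2134 lower. *Cdkn2b*, a cell cycle inhibitor, went from 0.708 ± 0.283 to 3.67 ± 0.762 CPM (log2 2.37, SE 0.28, edgeR adjusted p = 0.000364). *T*, which encodes the mesoderm regulator Brachyury, went from 0.886 ± 0.267 to 3.29 ± 0.531 CPM (log2 1.89, SE 0.24, edgeR adjusted p = 0.000513). *Pax6*, a neural regulator, was the gene called lower, at 27.2 ± 1.27 and 22.1 ± 0.669 CPM (log2 -0.30, SE 0.05, edgeR adjusted p = 0.00396). At that level *Pax6* was not silent in WT, where all 69 genes of its list summed to 50.6 to 56.1 CPM. Others called higher included *Wt1*, *Foxc1*, *Foxf1*, *Tbx20*, *Eomes*, *Cdkn2a* and *Neurod1*, at 0.0773 to 5.97 CPM in WT. Not all of these passed the filter in both groups: of the 10 genes called higher, 7 did. Histone marks and Polycomb binding at these genes were not analysed here.

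**Figure D5:**
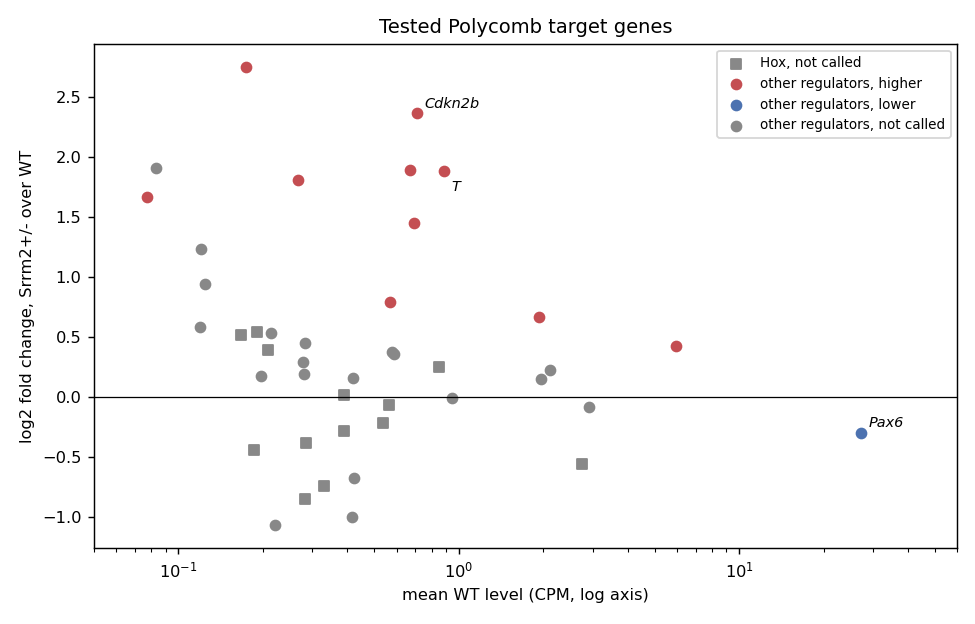
Log2 fold change (Srrm2+/- over WT) of the 43 tested Polycomb target genes against their mean WT level (CPM, log axis); squares are Hox genes and circles other regulators, red called higher, blue called lower, grey not called. The Hox squares lie on both sides of 0 with none called, and 5 of the 13 passed the filter in both groups; 10 circles are called higher, 7 of them genes that passed in both groups. The 2 kinds of gene were not tested against each other.

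Markers of other cells and states moved between the groups as well. Beside the counts below stand the 13.6% higher and 11.7% lower of all genes tested. Sums cover every gene of a list, tested or not. Of 7 tested genes of the primitive endoderm list (9 listed), 3 rose, and the list's summed level was 61.3 to 68.7 CPM in WT and 113 to 130 CPM in Srrm2+/-, although the defining markers *Gata4* (0.949 and 0.946 CPM) and *Gata6* (0.124 and 0.242 CPM) were low and not called, and *Sox17* and *Foxa2* lay below the filter. Of 6 tested trophectoderm genes (8 listed), 3 rose and 1, *Tfap2c*, fell (50.6 to 30.8 CPM), with sums of 68.8 to 72.9 CPM and 269 to 299 CPM, in which *Krt8* and *Krt18* went from 8.73 and 9.21 to 126 and 127 CPM and *Cdx2* was at 0 counts in WT and 0.155 CPM in Srrm2+/-. Of 6 tested fibroblast genes (8 listed), 5 rose, 3 of them among the 4 that passed the filter in both groups, with sums of 4.78 to 5.06 CPM and 10.4 to 13.8 CPM. Of 10 pluripotency genes, 6 fell and 1 rose, and of 14 proliferation genes 3 fell and none rose, with sums of 5044 to 5263 CPM in WT and 4887 to 5028 CPM in Srrm2+/-. In bulk RNA, fewer cells with a transcript and less of it per cell cannot be told apart, and the part of these differences in the values of the Polycomb genes and their targets was not tested.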

How the data were processed

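Total RNA of 3 WT and 3 Srrm2+/- cultures was sequenced, and the titles gave each sample's genotype and replicate number. With Kallisto 0.46.1 and GENCODE release M24 transcripts (mm10, GRCm38), the authors made a table of estimated counts, deposited without normalisation. The strand setting of this step is not given in the sources used here, although the kit keeps strand. Kallisto divides reads between transcripts that share sequence, so the share of each gene's 31-base words found in other genes (GENCODE release M21) was computed. It was 0 for *Ring1*, 6.42% for *Mtf2* (mostly *Tmed5*), 7.61% for *Eed* and at most 3.68% for the other members. Among other pathway genes named for a call it was 32.5% for *Phf1*, 16.5% for *Rbbp7*, 13.4% for *Kdm2b*, 10.8% for *Rybp* and at most 6.08% for the rest.

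Estimated counts were rounded to whole numbers. Of the 42450 genes, 42156 matched the annotation of GENCODE release M21, which gave symbols, positions (from 1) and exon lengths. Genes past edgeR's filterByExpr (minimum count 10, minimum total 15) were tested with edgeR 4.0.16 under R 4.3.3 (TMM, glmQLFit, glmQLFTest, two-sided, genotype as the sole term, 6 libraries). P-values were adjusted by Benjamini-Hochberg over all 18905 genes tested, and adjusted p-values are from this fit unless another is named. The standard error is the size of the log2 fold change divided by the square root of F. CPM used TMM-scaled library sizes.

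The members and gene lists were chosen with earlier results of these data known. Outside the members and the paralogue families, genes named were *Srrm2* and, per list, up to 3 rises and 3 falls among those called, where the average log2 CPM reached 0 and the groups did not overlap; other names are examples of markers or of counts. Promoter windows came from RefSeq and matched all 10 members. Alternatives were RLE and upper quartile scaling, DESeq2 1.42.0, limma 3.58.1 voom, 2 other filters, exclusion of mitochondrial, rRNA and short RNA genes, a replicate block, glmTreat and each library left out. Scripts were run on simulated data with known changes. There edgeR missed most changes of 1.2-fold, and its share of false calls lay above the threshold. Spliced isoforms, single cells and knockdown data were not analysed here. Of the genes that the naming rule picks, 1 is not reported here.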

Additional observations from a re-analysis of the deposited data

How the results depend on the processing

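The calls of *Jarid2*, *Suz12*, *Mtf2* and *Ezh1* held under 14 of 15 alternatives each and were lost only against a 1.2-fold change. With that test 0 members were higher and 0 lower, 2 and 0 of the other pathway genes, and 6 and 0 of the targets (all genes: 1276 higher, 741 lower). Leaving out 1 library gave 1 member higher in every fit and 3 to 4 lower, 7 to 11 other pathway genes higher and 2 to 5 lower, and 8 to 9 targets higher and 1 to 2 lower, with 2 without WT replicate 1 or Srrm2+/- replicate 1. The log2 fold change of *Cbx7*, near 0, turned negative with RLE (-0.00013), DESeq2 (-0.00010), the replicate block (-0.00018) and the exclusion of mitochondrial, rRNA and short RNA genes (-0.0025), and ranged from -0.046 to 0.048 without 1 library. That of *Ring1* ranged from -0.0076 to 0.081. The median of all genes stayed between -0.0040 and 0.010.

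Same-numbered libraries did not deviate together over all genes tested (correlations -0.029, -0.034 and -0.030 for replicates 1 to 3). The main fit did not pair them, and a correlation over all genes cannot exclude a batch shared by some genes. With the replicate number as a block, 1 member was called higher and 3 lower, since *Pcgf6* was lost. Of the other pathway genes 8 were higher and 4 lower, of the targets 8 and 1. Scaling to spike-ins was not run: the table lists mouse genes and no spike-ins.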
